A study of Homo sapiens with 120 samples.

Results

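The genes described here are 132 genes whose RNA in TK6 cells, a human B lymphoblastoid line in long use, was lower after 200 µM formaldehyde both early and late. They were chosen from measured values: the gene's array signal, on a log2 scale, had to be lower by at least 1 at 4 h and by at least 0.3 at 24 h, each against the untreated formaldehyde arrays of the same time. A gene also had to reach a mean signal of 6.18 over all arrays, and symbols starting with ZNF were left out. Of 19775 genes with a probe set of their own, 12390 met the conditions on brightness and name, 531 met the condition at 4 h, and 132 met both, which left 399 other early falls above the 24 h limit. All 132 were among the 14023 genes bright enough to be tested.

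The series holds 120 arrays in 40 groups of 3, with 1 array from each of experiments 1, 2 and 3. Doses of formaldehyde (FA), a small aldehyde that crosslinks DNA and protein, were 50, 100 and 200 µM. The clastogens, chemicals that break chromosomes, were 2 alkylating agents: methyl methanesulfonate, or MMS, in doses of 80, 160 and 320 µM, and ethyl methanesulfonate, or EMS, in doses of 1, 2 and 4 mM. The aneugens, which disturb chromosome segregation, were 2 drugs that act on tubulin, colcemid (COL) and vincristine (VCR). They are labelled 1, 2 and 4 µg/ml, where a decimal point may have been lost, and are given here as the lowest, middle or highest dose. Untreated arrays were made separately for every chemical, and all groups, treated or not, were measured at 4 h and 24 h. All groups are the same cell line, and the labels do not say whether the 3 experiments were separate cultures, so p-values measure the spread between these experiments.

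An array signal is set by how fast a gene is transcribed and how fast its RNA decays. RNA polymerase needs longer to cross a long gene, and short-lived RNAs are known to change sooner than stable ones. By roles assigned by hand with the values known, 36 of the 132 genes act in transcription and chromatin, 22 in signalling and cell death, 18 as receptors, transporters or in traffic and 8 in the ubiquitin pathway. B cells are known to depend on IRF4, a transcription factor of B cell activation and plasma cell formation.

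Array medians lay between 6.13 and 6.24, a likeness that the RMA normalization itself brings about. Of the B cell markers, 11 of 12 with a probe set lay above the median brightness of all probe sets, led by HLA-DRA at 13.8 in untreated cells, whereas 4 of 13 T and NK cell markers, 3 of 8 monocyte and granulocyte markers, 5 of 10 epithelial and fibroblast markers and 3 of 4 red blood cell markers did. The mean of the monocyte and granulocyte list lay at 6.18 to 6.24 in the arrays with 200 µM formaldehyde at 4 h, against 5.84 to 6.01 in the untreated arrays of that time, and the part of this in the results was not tested. The 3′ minus 5′ difference of the ACTB control probe sets, which grows when RNA is shortened, was 0.680 in experiment 3 of the untreated formaldehyde arrays at 4 h and 0.350 and 0.299 in the arrays of experiments 1 and 2. Without that array 138 genes met the rule, 128 of them among the 132. CDKN1A, the p53 target that encodes the cell cycle inhibitor p21, was higher at 24 h of the highest dose by 1.93 with formaldehyde, 2.25 with MMS, 1.93 with EMS, 1.04 with colcemid and 0.81 with vincristine on the log2 scale. In cultures, less RNA of a gene per cell and fewer cells that express it cannot be told apart.

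By the rule's own measure the 132 genes had a median log2 change of -1.31 at 4 h, with single genes between -3.37 and -1.001, and of -0.51 at 24 h. These contrasts chose the genes, so no test is given for them (at an adjusted p under 0.05 in limma 24.2% of all genes were called lower and 29.6% higher at 4 h, and 23.9% lower and 23.8% higher at 24 h). By the probe sets used, the deepest at 4 h was ST8SIA4, which adds polysialic acid to glycoproteins. Its log2 signal was 5.58, 5.77 and 5.68 with 200 µM, against 8.94, 9.09 and 9.12 in untreated cells. The arrays with 200 µM lie below the 6.18 asked of a gene's mean, so a fold would rest on a dim signal and is not given. It was followed by ATXN1 (ataxin 1, a transcriptional co-repressor) at -2.51, IPO7 (the nuclear import receptor importin 7) at -2.50, LIN28B (a blocker of let-7 microRNA maturation) at -2.38, RASA2 (a Ras GTPase-activating protein) at -2.31 and RNF145 (a ubiquitin ligase) at -2.19. The next were DIPK1A, ADRB1, SSH2, JADE1, STX11, USF3, SLCO5A1, SPRED2 and CLOCK, between -2.09 and -1.92. Mean signals with 200 µM were also below 6.18 in DIPK1A (5.51), STX11 (5.62) and USF3 (5.65), so their changes rest on dim signals too. The median change of all 14023 genes in the same contrast was 0.08.

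Nearest to the 4 h limit of -1, BCL2L10 lay at -1.001, ASPM at -1.003 and ZMYM2 at -1.004 just inside it, and FBXO33 at -0.996, PRLR at -0.984 and ARMC8 at -0.981 just outside. Nearest to the 24 h limit of -0.3, JADE1 lay at -0.3001, KAT6B at -0.301 and CAMSAP1 at -0.307 inside it, and SAMD4A at -0.298, ERCC6L at -0.298 and TWF1 at -0.295 outside. These distances from the limits are smaller than the standard error of a change, whose median over the 132 genes was 0.09.

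**Figure D1:**
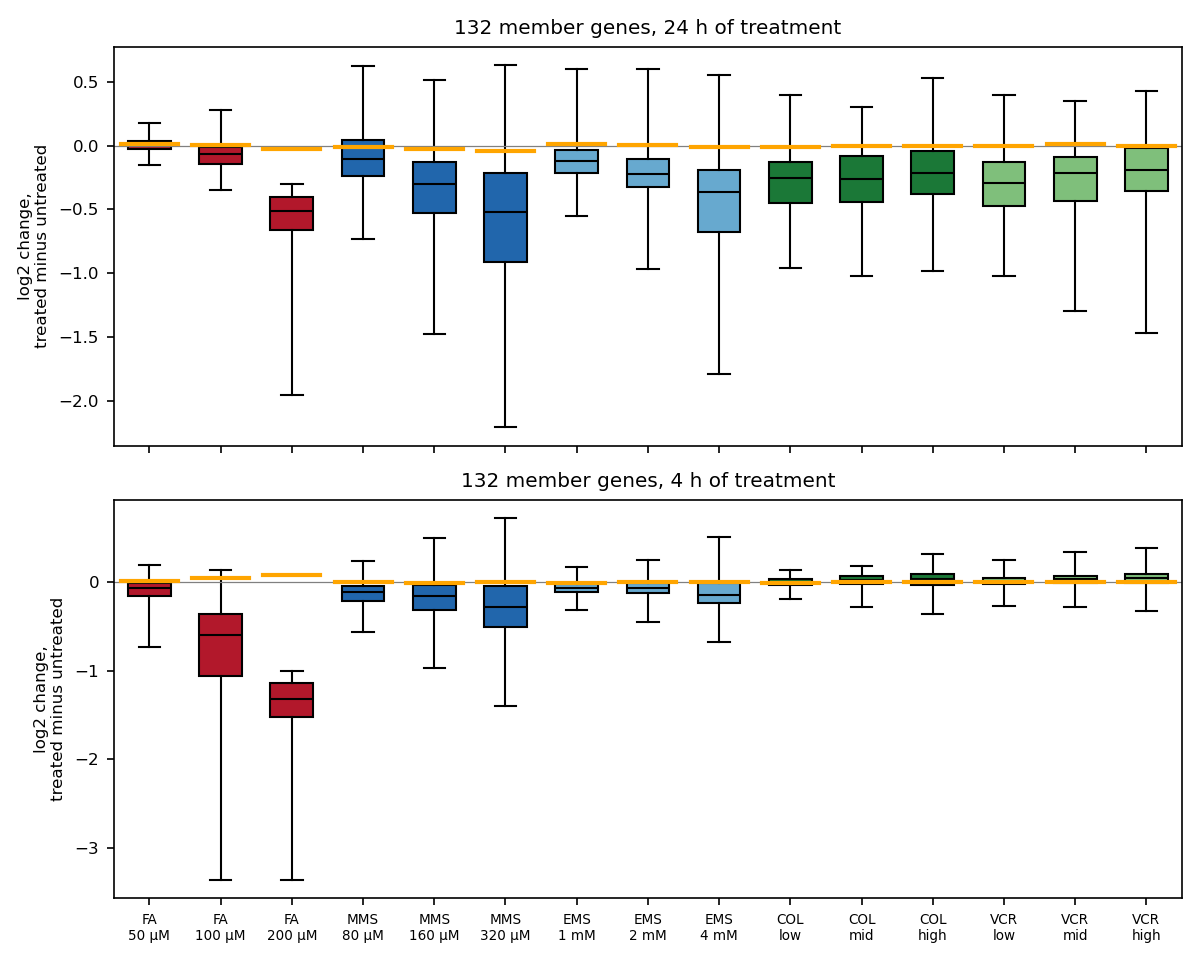
Log2 change against untreated arrays for the 132 genes in 15 groups of chemical and dose (horizontal axis), at 24 h (upper panel) and 4 h (lower panel). Boxes give the quartiles, whiskers the lowest and highest gene, and orange lines the median of all 14023 genes tested. At 24 h the boxes lie below the orange lines, except at 50 µM formaldehyde and 80 µM MMS, where the box spans the line. They lie only just below at 100 µM formaldehyde, 1 mM EMS and the highest doses of colcemid and vincristine. At 4 h the boxes of formaldehyde, MMS and EMS lie below the lines. Of these, 50 µM formaldehyde and all doses of MMS and EMS have upper edges close to the lines. Those of colcemid and vincristine at 4 h lie close to 0.

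How the genes answered lower doses of formaldehyde was asked first. Comparisons with untreated cells share the untreated arrays that the rule used, so the test that stands apart from the rule's differences is 100 minus 50 µM. At 4 h, 115 of the 132 genes were lower at 100 than at 50 µM and 0 higher, with a median difference of -0.53 (16.6% of all genes were called lower, 13.5% higher, and their median was 0.02). In 116 genes all 3 arrays at 100 µM lay below all 3 at 50 µM, which held for 20.0% of all genes. At 50 µM itself 2 genes were called against untreated cells at 4 h, ARL15 (a small GTPase of the ARF family) at -0.72 and KLF12 (a transcriptional repressor) at -0.72 (0.606% of all genes lower, 0.214% higher). With experiment as a block in the fit that count was 6, and without experiments 1, 2 and 3 it was 0, 1 and 0. At 100 µM the same comparison gave 118 lower and 0 higher (19.8% and 20.9% of all genes).

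The largest differences between 100 and 50 µM were in MAML2, a coactivator of Notch signalling, and in ATXN1. MAML2 had signals of 9.51, 9.48 and 9.49 in untreated cells at 4 h, 9.23, 9.32 and 8.92 at 50 µM, 5.78, 6.55 and 6.05 at 100 µM, and 7.62, 7.56 and 7.74 at 200 µM. ATXN1 had 8.78, 8.75 and 8.96 in untreated cells, 8.50, 8.66 and 8.12 at 50 µM, 5.37, 6.20 and 5.57 at 100 µM, and 6.54, 6.36 and 6.07 at 200 µM. In MAML2 no array at 100 µM overlapped another dose and the 200 µM arrays lay between those of 100 and 50 µM; in ATXN1 the arrays of 100 and 200 µM overlapped. The differences of 100 minus 50 µM were -3.03 (adjusted p = 1.16e-11) for MAML2 and -2.71 (adjusted p = 1.24e-10) for ATXN1 in limma. In all, 17 of the 132 genes had a lower mean at 100 than at 200 µM at 4 h: besides these they were CCR1, SH3RF1, RAPGEF6, ARL15, CREB5, ZCCHC7, FRY, ZMYM4, ZHX2, KLF12, PDE3A, MEIS2, ARHGAP21, MAP3K5 and KAT6B. That comparison of doses was not tested, since the 200 µM arrays chose the genes.

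Other genes differed little between the lower doses. ADRB1, the beta-1 adrenergic receptor, had 8.72, 8.76 and 8.84 in untreated cells at 4 h, 8.88, 8.96 and 8.90 at 50 µM, 8.77, 8.93 and 8.88 at 100 µM, and 6.58, 6.86 and 6.63 at 200 µM. Only the arrays at 200 µM stood apart, and the difference of 100 minus 50 µM was -0.05 with a standard error of 0.09 (adjusted p = 0.684). It was 1 of 17 genes not called in that comparison, with JADE1, C2orf69, MIR142, TIPARP, FBXO3, LOC646214, FHIP2A, ZBED4, LIN9, FANCF, GPR18, SMG1P5, KANSL1L, HASPIN, CCSAP and LINC01234.

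**Figure D2:**
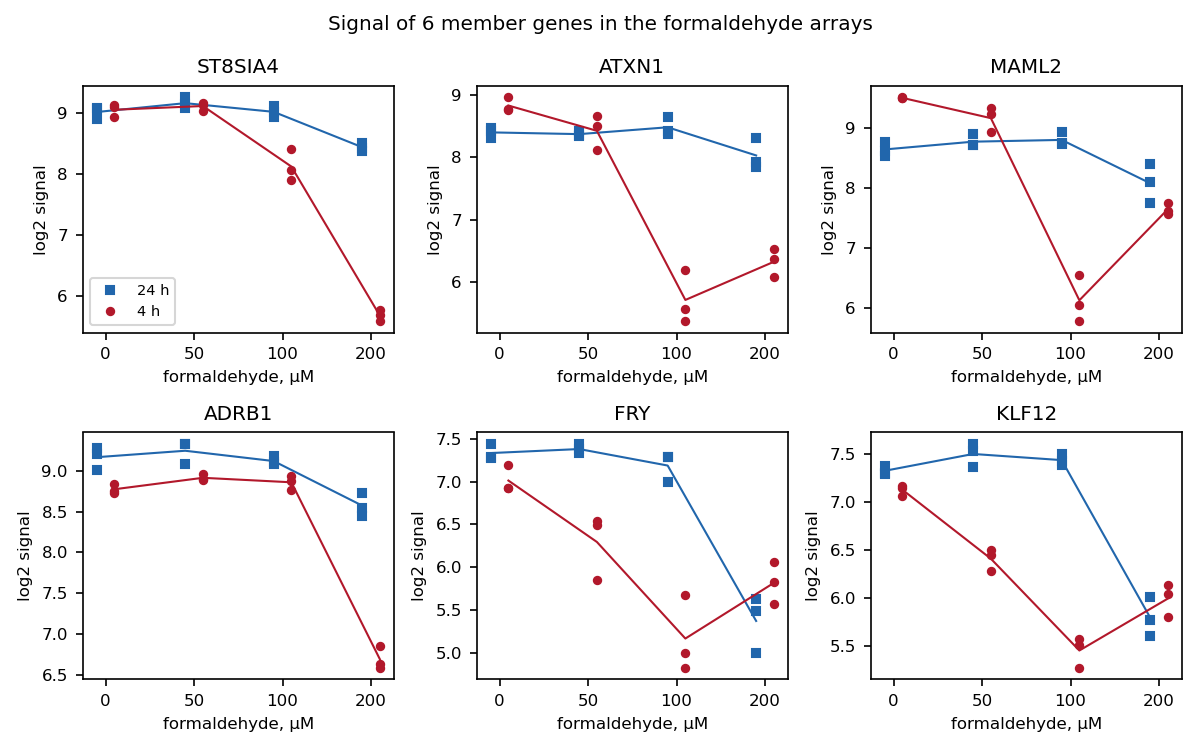
Log2 signal of 6 genes (vertical axis) against the formaldehyde dose in µM (horizontal axis, evenly spaced), at 24 h (blue squares) and 4 h (red circles); each point is 1 array and lines join group means. ATXN1, MAML2, FRY and KLF12 were lowest at 100 µM at 4 h, ST8SIA4 and ADRB1 at 200 µM, and at 24 h the 50 and 100 µM points lie near the untreated ones.

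Gene length went with this difference between doses. The 132 genes had a median length of 73.4 kb from start to end of the RefSeq gene, against 26.1 kb for all genes tested and 77.0 kb for the 399 other early falls. The median difference of 100 minus 50 µM at 4 h was -0.34 in the 20 members under 10 kb, -0.26 in the 12 of 10 to 30 kb, -0.44 in the 56 of 30 to 100 kb, -1.05 in the 33 of 100 to 300 kb and -1.25 in the 11 above 300 kb. Over all genes tested the medians in these bands were 0.08, 0.07, -0.03, -0.20 and -0.07. In the other early falls they were -0.24, -0.07, -0.30, -0.69 and -1.41, so deeper differences in long genes were not particular to the members. Across the 132 genes the rank correlation of length with this difference was -0.69 (Pearson r of log10 length -0.54), and across the 14006 tested genes with a length it was -0.41. Genes are not independent replicates, and all these points come from the same 6 arrays, so no p is given. Short exceptions were CCR1, a chemokine receptor gene of 6.60 kb, at -1.51 and TEX19, of 4.53 kb, at -1.02, with adjusted p of 1.84e-09 and 3.96e-10 in limma. At 24 h the rank correlation of length with the difference of 100 minus 50 µM was 0.25 across the members and 0.03 across the tested genes with a length.

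**Figure D3:**
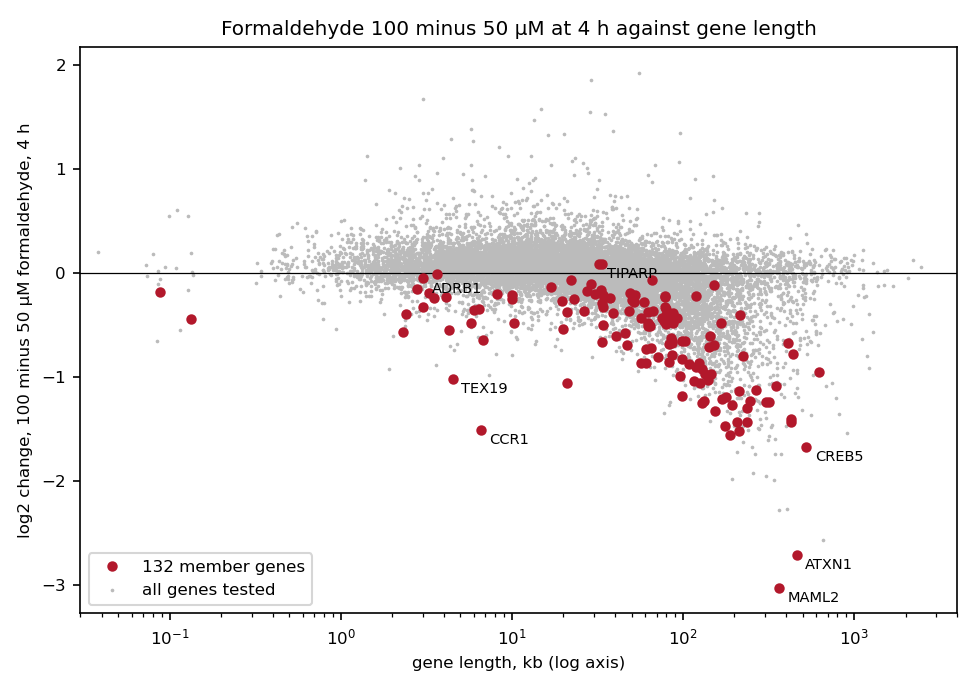
Log2 difference of 100 minus 50 µM formaldehyde at 4 h (vertical axis) against RefSeq gene length in kb (horizontal axis, logarithmic) for the 132 genes (red) and all genes tested (grey). Members longer than 100 kb reach lower values than most shorter members, with MAML2 and ATXN1 lowest, while CCR1 and TEX19 are short and low.

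To show the 2 kinds of dose response beside their start regions, the 250 bases before the RefSeq gene start are printed for 2 genes with the deepest differences between 100 and 50 µM (ATXN1 and MAML2) and for 2 genes not called in it (ADRB1 and TIPARP, an ADP-ribosyltransferase gene at 0.08, adjusted p = 0.52). The sequences are those of RefSeq on build GRCh38.p14, 5′ to 3′ in the direction of the gene. Capitals mark matches, on either strand, to any of the 8 motifs named further on. ATXN1 lies at chr6:16761461-16761710 on the minus strand, MAML2 at chr11:96343196-96343445 on the minus strand, ADRB1 at chr10:114043616-114043865 on the plus strand and TIPARP at chr3:156674340-156674589 on the plus strand.
ATXN1: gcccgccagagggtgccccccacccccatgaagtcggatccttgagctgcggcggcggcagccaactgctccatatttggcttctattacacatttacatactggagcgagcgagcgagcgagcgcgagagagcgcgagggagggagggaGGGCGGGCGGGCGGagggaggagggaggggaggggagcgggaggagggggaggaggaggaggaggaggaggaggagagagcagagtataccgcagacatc
MAML2: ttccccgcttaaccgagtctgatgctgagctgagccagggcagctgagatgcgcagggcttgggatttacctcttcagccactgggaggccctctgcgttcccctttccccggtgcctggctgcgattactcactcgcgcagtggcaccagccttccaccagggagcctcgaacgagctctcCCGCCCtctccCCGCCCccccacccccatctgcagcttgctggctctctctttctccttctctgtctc
ADRB1: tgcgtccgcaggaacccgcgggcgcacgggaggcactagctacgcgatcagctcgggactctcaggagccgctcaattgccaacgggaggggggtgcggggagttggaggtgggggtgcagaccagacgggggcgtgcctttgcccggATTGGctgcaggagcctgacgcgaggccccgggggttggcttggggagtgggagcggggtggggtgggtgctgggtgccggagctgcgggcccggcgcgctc
TIPARP: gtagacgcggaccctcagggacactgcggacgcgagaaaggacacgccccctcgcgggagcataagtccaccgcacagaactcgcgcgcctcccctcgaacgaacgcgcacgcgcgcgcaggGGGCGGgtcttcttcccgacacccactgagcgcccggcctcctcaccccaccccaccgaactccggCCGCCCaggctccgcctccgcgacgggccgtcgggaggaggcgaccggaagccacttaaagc
ATXN1 held 3 overlapping copies of GGGCGG, MAML2 and TIPARP held 2 each, and ADRB1 held 1 CCAAT on its minus strand. GC content over these 250 bases was 66.4% in ATXN1, 63.6% in MAML2, 72.8% in ADRB1 and 71.6% in TIPARP.

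Windows of 300 bases, 250 before and 50 after the gene start, were in the RefSeq table for 110 of the 132 genes. Their median GC content was 68.0%, with a median of 30 CpG dinucleotides, against 64.7% and 25 for the 11161 of 14023 tested genes with a window. GGGCGG, the GC box bound by SP factors, stood in 70.9% of member windows and 65.8% of those of tested genes. CCAAT stood in 33.6% and 36.3%, TATAAA in 7.27% and 6.60%, and the E-box CACGTG in 11.8% and 9.88%. CCGGAAGT, an ETS site, stood in 3.64% and 7.95%, the cyclic AMP response element TGACGTCA in 2.73% and 3.09%, the NRF1 site in 1.82% and 2.17%, and the YY1 site in 3.64% and 2.54%. Over all 27305 genes of that table, most of which are not expressed here or were not tested, the shares were 44.6% for GGGCGG, 35.7% for CCAAT, 11.95% for TATAAA, 7.43% for CACGTG, 4.44% for CCGGAAGT, 1.98% for TGACGTCA, 1.36% for the NRF1 site and 1.28% for the YY1 site. Both strands were searched, and a match is a run of letters, not a binding site.

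At 24 h few of these genes were called at the lower doses of formaldehyde, and changes were small. In 43 of the 132 genes all 3 arrays at 100 µM lay below all 3 at 50 µM, which held for 9.73% of all genes. The median difference of 100 minus 50 µM was -0.08, against 0.0006 over all genes. In limma, 0 of the 132 genes were called at 50 µM against untreated cells (0.0% of all genes in either direction), and 0 members and 385 of all genes had an unadjusted p under 0.05. At 100 µM 2 were lower and 1 higher (0.385% and 3.42% of all genes), or 6 lower with experiment as a block. Without experiments 1, 2 and 3, 0, 1 and 1 were lower and 0 higher. The 2 were ARID2, a subunit of the PBAF chromatin remodelling complex, and ZBTB2, a zinc finger repressor, and the 1 higher was GPR18, a G protein-coupled receptor, at 0.28 (adjusted p = 0.0232). ARID2 and ZBTB2 were also the 2 members lower at 100 than at 50 µM at 24 h (0.0784% of all genes), at -0.34 (adjusted p = 0.019) and -0.29 (adjusted p = 0.0309), and neither was called with any 1 experiment left out. The difference of 100 minus 50 µM was less negative at 24 h than at 4 h in 81 members and more negative in 0, or in 1 with experiment as a block (11.9% and 6.35% of all genes). Leaving out experiment 1 changed the 81 to 45.

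With 200 µM the order of depth differed at 24 h. FRY, a scaffold protein of cell polarity and mitosis, was lowest at -1.96, then KLF12 at -1.53, MACC1 (a regulator of MET expression) at -1.45, SLC16A14 (a member of the monocarboxylate transporter family) at -1.23 and HMGA2 (an architectural chromatin protein) at -1.09, followed by FAM117B, MARS2, GCNT2, ARID2 and MIR142 between -1.02 and -0.95. FRY had 5.50, 5.63 and 4.998 with 200 µM at 24 h, against 7.28, 7.44 and 7.28 in untreated cells. FRY, KLF12 and MACC1 were the 3 genes deeper at 24 h than at 4 h. ATXN1, with 7.85, 8.31 and 7.93 against 8.31, 8.42 and 8.47 in untreated cells, touched the untreated range. ACTB 3′ minus 5′ was 0.768 ± 0.070 with 200 µM at 24 h and 0.481 ± 0.024 in untreated cells (SD, n = 3 each), and of 11 B cell markers tested 7 were called lower and 4 higher there, with a median change of -0.35. The part of either in these values was not tested.

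The other 4 chemicals were not used for the differences that chose the genes, and each has its own untreated arrays. Their arrays did enter the mean signal over all arrays, which set the probe set and the brightness limit. With MMS at 24 h the genes were lower in a dose-related way: 40 of 132 were called lower at 80 µM, 94 at 160 µM and 103 at 320 µM, with medians of -0.10, -0.30 and -0.52 (10.9%, 21.6% and 27.7% of all genes were called lower). Called higher were 10, 5 and 7 (17.6%, 25.7% and 30.8% of all genes). In 105 genes all 3 arrays at 320 µM lay below all 3 untreated arrays, against 28.6% of all genes. At 80 µM the 40 became 20, 27 and 35 without experiments 1, 2 and 3 and the 10 became 6, 8 and 9, and at 160 µM the 5 became 3, 3 and 5. ACTB 3′ minus 5′ at 24 h was 0.942 in untreated cells and 1.06, 1.28 and 1.88 at 80, 160 and 320 µM, and the B cell markers were lower in 10 of 11 tested at 320 µM; their part in the counts was not tested.

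FJX1, the human relative of the Drosophila gene four-jointed, changed most with 320 µM MMS. Its signals were 6.42, 6.36 and 6.34 at 24 h, against 8.54, 8.68 and 8.54 in untreated cells, a change of -2.21 (adjusted p = 2.44e-18). FRY changed by -1.94, EVI2B (a transmembrane protein of blood cells, encoded inside an intron of NF1) by -1.84, GRIN2A (an NMDA receptor subunit) by -1.65 and MIR142 by -1.64. None of these 5 genes had treated arrays within the untreated range. Of the 7 members called higher, 5 rose most: OSBPL11, an oxysterol-binding family protein, by 0.63, SPOPL, an adaptor of cullin 3 ubiquitin ligases, by 0.41, SGTB, a co-chaperone, by 0.40, FANCM, a DNA translocase of the Fanconi anaemia pathway, by 0.37 and ARHGAP5 by 0.25. ARHGAP5 was at -0.12 with the mean of its probe sets (adjusted p = 0.0917). OSBPL11 had 9.82, 9.77 and 9.79 with 320 µM, against 9.17, 9.24 and 9.08 in untreated cells.

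At 4 h MMS gave 14, 55 and 78 genes lower at 80, 160 and 320 µM and 0, 4 and 9 higher (0.984%, 6.57% and 13.4% of all genes lower, 0.62%, 6.97% and 15.3% higher). With experiment as a block the first count was 22. It was 2, 2 and 4 without experiments 1, 2 and 3, and the 55 became 25, 36 and 41, the 4 became 1, 3 and 3, and the 9 became 4, 7 and 7. IKZF2 (Helios, an Ikaros family factor of lymphocytes) at -1.40, GRIN2A at -1.31, EVI2B at -1.29 and MAML2 at -1.15 changed most at 320 µM. Between the times, the change with 320 µM was lower at 24 h than at 4 h in 59 genes and higher in 18 (19.7% and 25.6% of all genes), where the 18 became 8, 16 and 12. Both times shared 71 genes called lower, which is 68.9% of the 103 at 24 h and 91.0% of the 78 at 4 h, against 27.8% and 57.6% for the same lists over all genes tested. Lower at 24 h but higher at 4 h were 5 genes: JDP2 (a repressor of AP-1 activity) at -0.63 and 0.73, TSHZ1 at -0.53 and 0.25, TEX19 at -0.53 and 0.23, ZBTB2 at -0.26 and 0.21, and CCSAP at -0.35 and 0.31. ARL15 and KIF18A went the other way. How many of all genes changed direction between the times was not counted. Of the 78 genes lower at 4 h, 75 were also among the 115 lower in formaldehyde at 100 against 50 µM at 4 h, which is 96.2% and 65.2% of the 2 lists, against 58.0% and 46.6% over all genes tested. The second list already holds 115 of the 132 genes. The rank correlation of gene length with the change at 320 µM across the members was 0.10 at 24 h and -0.28 at 4 h. Across all genes tested with a length it was 0.03 and -0.24, so the members lay close to all genes at 4 h.

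EMS gave a similar picture with smaller changes. At 24 h, 44, 72 and 104 genes were lower at 1, 2 and 4 mM, with medians of -0.12, -0.22 and -0.37, and 6, 7 and 5 were higher (8.94%, 14.7% and 23.6% of all genes lower, 15.4%, 19.9% and 27.8% higher). In 109 genes no array at 4 mM reached the untreated range from below (27.0% of all genes). The 44 at 1 mM became 24, 30 and 25 without experiments 1, 2 and 3, the 7 at 2 mM became 5, 4 and 5, and the 5 at 4 mM became 4, 4 and 2. FRY changed by -1.79, FJX1 by -1.51, GCNT2 (the enzyme that branches I blood group chains) by -1.26, EOMES (a T-box transcription factor) by -1.25 and SKIL (SnoN, a repressor of TGF-beta signalling) by -1.23. The 5 called higher were RESF1 at 0.55, OSBPL11 at 0.22, JADE1 (a subunit of the HBO1 histone acetyltransferase complex) at 0.21, KIF18A (a mitotic kinesin) at 0.20 and SPOPL at 0.14. ACTB 3′ minus 5′ was 0.664 ± 0.034 at 4 mM and 0.521 ± 0.072 in untreated cells at 24 h (SD, n = 3 each), and its part was not tested.

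At 4 h EMS gave 1, 5 and 39 genes lower at 1, 2 and 4 mM and 0, 0 and 5 higher (0.0357%, 0.335% and 4.05% of all genes lower, 0.107%, 0.72% and 5.55% higher). The 39 became 11, 16 and 24 without experiments 1, 2 and 3, and the 5 became 6, 3 and 2. The 1 and 5 at the lower doses were 4 and 9 with experiment as a block, and became 0 and 2, 0 and 1, and 0 and 2 without experiments 1, 2 and 3. The 5 higher were ADRB1, JDP2, SGTB, SPOPL and TMEM170B. The change with 4 mM was lower at 24 h than at 4 h in 78 genes and higher in 3 (16.9% and 21.4% of all genes). Across the 132 genes the changes with MMS and EMS at 24 h had a Pearson r of 0.85, and across all genes tested 0.88.

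With colcemid and vincristine the genes were lower at 24 h and almost none moved at 4 h. At 24 h of colcemid 90, 86 and 72 genes were lower at the lowest, middle and highest dose and 2, 2 and 9 higher (20.7%, 20.3% and 18.3% of all genes lower, 16.6%, 17.4% and 18.0% higher). Vincristine gave 92, 76 and 66 lower and 5, 6 and 9 higher (20.8%, 19.5% and 18.2% lower, 16.6%, 17.4% and 17.5% higher). The medians were -0.25, -0.27 and -0.21 with colcemid and -0.29, -0.22 and -0.19 with vincristine. All 3 treated arrays at the highest dose lay below all untreated ones in 80 genes with colcemid and 74 with vincristine (24.3% and 22.4% of all genes). Without experiments 1, 2 and 3 the 9 higher with colcemid became 5, 8 and 7, the 2 at its lowest dose became 1 each time and the 2 at its middle dose 1, 2 and 1, or 4 with experiment as a block. With the mean of probe sets the 86 became 57. The 6 with the middle dose of vincristine became 3, 5 and 6. Whether the lowest dose differed from the highest was not tested.

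MIR142 changed most with both, by -0.99 with colcemid and -1.47 with vincristine. It had 8.61, 8.69 and 8.71 with colcemid, against 9.60, 9.76 and 9.60 in untreated cells, and 8.40, 8.34 and 8.36 with vincristine, against 9.82, 9.93 and 9.76. ADRB1 changed by -0.98 and -1.42, EOMES by -0.95 and -1.21, SLC16A14 by -0.93 and -0.85, and HMGA2 by -0.82 and -0.88. MARS2, the mitochondrial methionyl-tRNA synthetase, changed by -0.73 and -1.06, and FRY by -0.62 and -0.95. Genes called higher were fewer, and the 5 largest rises among them were, with colcemid, ARL15 at 0.53, CCR1 at 0.50, CREB5 at 0.35, MAML2 at 0.28 and KIF18A at 0.26, and, with vincristine, KIF18A at 0.43, ARL15 at 0.41, RNF145 at 0.40, MAML2 at 0.34 and INTS6 (an Integrator subunit) at 0.33. At the lowest dose of vincristine the 5 higher were 0, 1 and 5 without experiments 1, 2 and 3.

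The array's probe set for MIR142 reads a transcript assigned to that gene, the host of miR-142, a microRNA of blood cells, and does not measure the mature microRNA. The 2 mature forms that the gene gives are printed from RefSeq (GRCh38.p14) because it changed most with both drugs at 24 h; capitals mark the seed, bases 2 to 8. The 3p form lies at chr17:58331245-58331267 and the 5p form at chr17:58331283-58331303, both on the minus strand, and their seeds differ.
hsa-miR-142-3p: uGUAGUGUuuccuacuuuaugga
hsa-miR-142-5p: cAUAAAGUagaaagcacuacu
A dimmer probe set of the same gene changed by -0.65 at 24 h and -0.37 at 4 h of 200 µM formaldehyde, against -0.95 and -1.55 for the one used.

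At 4 h 0 genes were called at the lowest and middle doses of either drug in limma (0.0428% of all genes lower and 0.0214% higher at the middle dose of colcemid, 0.00713% lower at that of vincristine). At these doses 3 and 8 members had an unadjusted limma p under 0.05 for colcemid and 5 and 12 for vincristine. Of all 14023 genes tested, 265 and 367 had such a p for colcemid and 511 and 567 for vincristine. At the highest dose colcemid gave 2 lower, BCL2L10 (a BCL2 family protein) at -0.19 and IRF4 at -0.22, and 4 higher, RASA2 at 0.31, FUT4 at 0.25, ST8SIA4 at 0.25 and AKAP11 at 0.17 (0.107% and 0.806% of all genes). Vincristine gave MIR142 lower at -0.33 and ST8SIA4 higher at 0.39 (0.0642% and 0.185% of all genes). With experiment as a block these counts were 5 lower and 8 higher for colcemid and 2 higher for vincristine. Without experiments 1, 2 and 3 the colcemid counts were 0, 1 and 0 lower and 0, 1 and 0 higher, and both vincristine counts were 0.

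**Figure D4:**
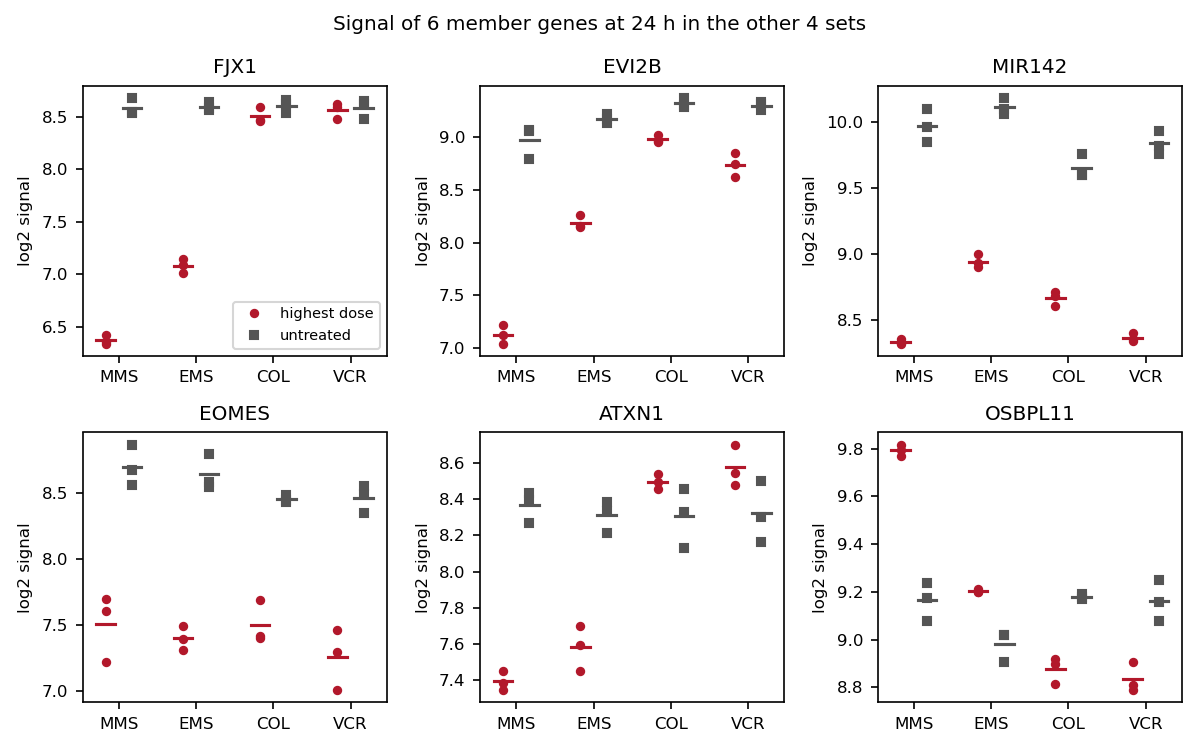
Log2 signal of 6 genes (vertical axis) at 24 h in the 4 sets that the rule did not use for its differences, with the highest dose (red circles) left of untreated cells (grey squares). Points are arrays and bars group means. FJX1 is lower with MMS and EMS and overlaps untreated cells with colcemid and vincristine, MIR142 and EOMES are lower in all 4, and ATXN1 and OSBPL11 move in opposite directions between the 2 pairs of chemicals.

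Taking the highest dose at 24 h of the 4 sets, 41 of the 132 genes were called lower in all 4, 22 in 3, 52 in 2, 11 in 1 and 6 in 0. Of all 14023 genes tested 5.98% were called lower in 4 of these sets, 4.96% in 3, 16.95% in 2, 15.2% in 1 and 56.9% in 0. The 41 included the lymphocyte transcription factors IRF4, IKZF2, TCF4, EOMES and KLF12, the chromatin enzymes CHD1, CHD7 and KAT6B, and IPO7, RASA2, ADRB1, FRY, HMGA2, MIR142 and MAP3K5 (the stress kinase ASK1). The 6 were TMCC1, ARL15, SGTB, ARHGAP12, KIF18A and G2E3. IRF4 had 10.10, 10.25 and 10.03 with MMS, against 11.49, 11.58 and 11.59 in untreated cells, and 11.51, 11.56 and 11.46 with colcemid, against 11.76, 11.84 and 11.78. It did not overlap in either set, and its changes were -1.43 with MMS, -0.93 with EMS, -0.29 with colcemid and -0.39 with vincristine.

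Clastogens and aneugens differed in many members. The change, averaged over MMS and EMS, minus that averaged over colcemid and vincristine was lower in 79 genes and higher in 18 (24.7% and 29.9% of all genes), with a median of -0.26. FJX1 at -1.80, GRIN2A at -1.32, ST8SIA4 at -1.30, RNF145 at -1.20 and CREB5 at -1.19 led the lower ones. The value of GRIN2A rests on dim signals, with means of 5.17 with MMS and 5.57 with EMS. SPOPL at 0.80, OSBPL11 at 0.74, ARHGAP5 at 0.59, JADE1 at 0.58 and ADRB1 at 0.58 led the higher ones. Signs were opposite, each called, in 4 genes lower with both clastogens and higher with both aneugens: ATXN1, RNF145, MAML2 and CWC22 (a splicing factor). ATXN1 had 7.38, 7.35 and 7.45 with MMS, against 8.27, 8.44 and 8.39 in untreated cells, and 8.54, 8.70 and 8.48 with vincristine, against 8.16, 8.50 and 8.30. Its MMS arrays did not overlap the untreated ones and its vincristine arrays did. Lower with both aneugens and higher with at least 1 clastogen were JADE1, ARHGAP5, FANCM, OSBPL11 and SPOPL. The share of all genes with such opposite calls was not counted. At 24 h ACTB 3′ minus 5′ was 1.88 with 320 µM MMS and 0.66 with 4 mM EMS. It was 0.51 and 0.50 with the highest doses of colcemid and vincristine. Untreated cells gave 0.94, 0.52, 0.54 and 0.46 in these sets, and the part of this in the differences was not tested.

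MMS gave a lower change than EMS at 24 h in 42 genes and a higher one in 12 (11.8% and 15.1% of all genes), with EVI2B at -0.86, SLC16A14 at -0.85, ADRB1 at -0.84, MACC1 at -0.74 and FJX1 at -0.70 as the difference of MMS minus EMS. The 12 became 3, 14 and 5 without experiments 1, 2 and 3. The doses of the 2 chemicals are not matched. ACTB 3′ minus 5′ was 1.88 with 320 µM MMS against 0.94 untreated, and 0.66 with 4 mM EMS against 0.52. Its part in these differences was not tested. Colcemid minus vincristine was lower in 2 genes, FUT4 and QSER1, and higher in 6, CCR1, MIR142, ADRB1, AKAP11, IKZF2 and MARS2 (0.506% and 1.51% of all genes). CCR1 had the largest of these differences at 0.67 (adjusted p = 4.67e-06). The 6 became 2, 1 and 2 without experiments 1, 2 and 3, and the 2 became 0, 1 and 1. Across the 132 genes the changes with colcemid and vincristine had a Pearson r of 0.87, and those with MMS and colcemid 0.16 (0.88 and 0.32 across all genes tested).

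The 399 other early falls, which met the rule at 4 h and not at 24 h, gave a different picture in the same arrays. At 24 h of 320 µM MMS 103 members and 102 of the others were lower and 7 and 196 higher, that is 78.0% and 25.6% lower. With 4 mM EMS 104 and 92 were lower and 5 and 177 higher, with the highest dose of colcemid 72 and 69 lower and 9 and 146 higher, and with that of vincristine 66 and 77 lower and 9 and 146 higher. At 4 h of 100 against 50 µM formaldehyde 115 members and 254 others were lower, with medians of -0.53 and -0.39. In these counts both sets of genes share the arrays, and the difference between the sets was not tested.

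**Figure D5:**
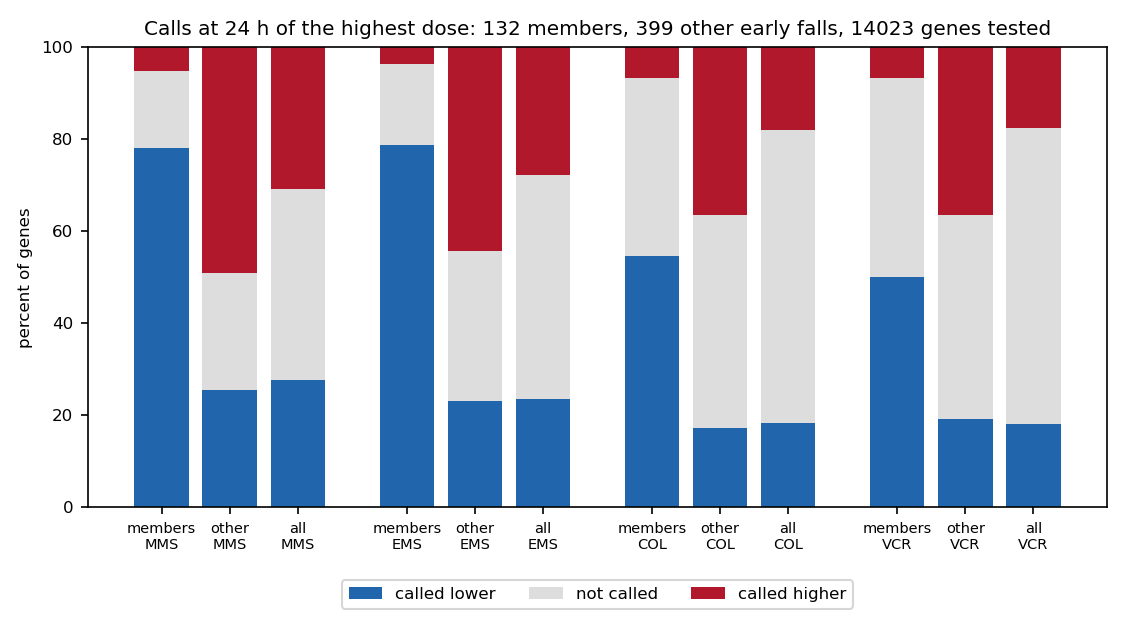
Percent of genes called lower (blue), not called (grey) and called higher (red) at 24 h of the highest dose in 4 sets, for the 132 members, the 399 other early falls and all 14023 genes tested. Members were called lower in 50.0% to 78.8% and the other early falls in 17.3% to 25.6%.

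Of the 36 genes of transcription and chromatin, 30 were lower and 0 higher at 24 h of 320 µM MMS, 28 and 2 with 4 mM EMS, 22 and 3 with the highest dose of colcemid and 21 and 2 with that of vincristine. Over all genes tested the shares lower and higher were 27.7% and 30.8% with MMS, 23.6% and 27.8% with EMS, 18.3% and 18.0% with colcemid and 18.2% and 17.5% with vincristine, and these also stand behind the other roles. The group holds the histone acetyltransferase KAT6B, the remodellers CHD1 and CHD7, ARID2, the co-repressor scaffold SIN3A and CLOCK, a core circadian factor. ARID2 changed by -0.68, -0.59, -0.28 and -0.11 in the 4 sets, the last not called (adjusted p = 0.306). With the mean of its probe sets its change with colcemid was 0.16 and not called.

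The 22 genes of signalling and cell death were lower in 15, 16, 13 and 15 with MMS, EMS, colcemid and vincristine. They include SPRED2, an inhibitor of Ras signalling, at -0.72, -0.52, -0.07 and 0.00, of which the last 2 were not called, and MAP3K5 at -0.55, -0.61, -0.21 and -0.24. RAPGEF6 (a Rap exchange factor) changed by -0.28, -0.32, -0.31 and -0.32. ARHGEF3 changed by -0.63 with MMS and was not called with EMS. PHLPP2, an Akt phosphatase, was called with EMS at -0.21 and in none of the other 3.

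The 18 genes of receptors, transporters and traffic were lower in 16, 15, 7 and 7 of the 4 sets in the same order, and the 9 glycosyltransferases and other enzymes in 9, 8, 4 and 4. ST8SIA4 changed by -1.42 with MMS and -1.17 with EMS, and was not called at 24 h with colcemid (-0.01) or vincristine (0.02). FUT4, which makes fucosylated Lewis antigens, changed by -1.13 and -0.50 with the clastogens and by 0.32 with vincristine. The 12 genes of RNA processing and translation were lower in 8, 12, 6 and 6. TNRC6A, a scaffold of microRNA silencing, was called with EMS alone, at -0.33. The 12 of cell cycle and DNA repair were lower in 9, 8, 9 and 5, and 2, 1, 1 and 1 were higher. The 8 of the ubiquitin pathway were lower in 4, 6, 4 and 3, where KLHL5, a BTB-Kelch protein, changed by -0.65, -0.32 and -0.22 and was not called with vincristine. With the mean of its probe sets the value of KLHL5 with colcemid was 0.02 and not called. The 5 symbols of non-coding genes were lower in 4, 5, 2 and 2, and the 10 remaining genes in 8, 6, 5 and 3.

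Wider gene lists place the members among their relatives, counting called genes of all those tested. At 4 h of 200 µM formaldehyde, a contrast the rule used and in which 24.2% of all genes were lower and 29.6% higher, 26 of 40 lymphocyte transcription factors were lower and 5 higher, 48 and 8 of 71 chromatin modifiers, 44 and 1 of 58 ubiquitin ligases, 21 and 2 of 38 glycosyltransferases and 19 and 2 of 24 genes of the MAP kinase cascade. These lists hold 4, 4, 1, 3 and 3 members in that order, which are lower there by the rule itself. The counts in this contrast are therefore a description and not a test. Further lists, with 0 or 1 member each, gave 15 and 3 of 22 nuclear receptors and coregulators, 10 and 1 of 14 circadian clock genes, 25 and 4 of 42 RNA-binding and decay factors, 19 and 3 of 31 deubiquitinases, 19 and 3 of 25 genes of TGF-beta and BMP signalling, and 13 and 5 of 27 of Wnt and Notch signalling. Short-lived feedback and early genes gave 9 lower and 20 higher of 36, and 0 of them are members. Housekeeping genes gave 2 and 5 of 15.

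In 100 against 50 µM at 4 h, where 16.6% of all genes were lower and 13.5% higher, these lists gave 24 lower and 2 higher for lymphocyte transcription factors, 42 and 6 for chromatin modifiers, 34 and 5 for ubiquitin ligases, 22 and 0 for glycosyltransferases and 18 and 1 for the MAP kinase cascade. At 24 h of 320 µM MMS, where 27.7% were lower and 30.8% higher, the counts were 18 and 8 for lymphocyte transcription factors, 17 and 33 for chromatin modifiers, 12 and 27 for ubiquitin ligases and 24 and 4 for glycosyltransferases, so that more chromatin modifiers and ubiquitin ligases were higher than lower there. The members among the chromatin modifiers, KAT6B, ARID2, CHD1 and CHD7, were lower in that comparison. The median change of the glycosyltransferases was -0.29, against -0.04 over all genes tested.

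In untreated cells the genes also differed between the times. Over the 24 untreated arrays of the 4 other chemicals, 24 h gave higher signals than 4 h in 68 members and lower ones in 29 (23.6% and 26.0% of all genes), against 62 and 202 of the 399 other early falls. FAM117B at 0.60 and KLF12 at 0.51 rose most, and MAML2 at -0.76 and FUT4 at -0.54 fell most. The 29 became 16, 25 and 31 without experiments 1, 2 and 3.

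Other probe sets of the same genes did not always follow. Of the 132 genes 104 had a second single-symbol probe set and 81 a second one at or above 6.18. In 69 of the 81 the next brightest was below 0 at 4 h and in 73 at 24 h of 200 µM formaldehyde, and 22 met both limits of the rule. IPO7 had 3 further probe sets, at -2.19, -2.31 and -2.33 at 4 h, close to the -2.50 of the one used. ATXN1 had 1 further bright probe set at -2.22 and another at -0.12. The other probe sets of FRY were dim, with means of 4.78 to 5.28, and lay between -0.04 and 0.16 at 4 h and between -1.19 and -0.43 at 24 h. The next brightest probe sets of ST8SIA4 lay at -1.44 and -1.43 at 4 h and at -0.23 and -0.25 at 24 h. A dimmer one, with a mean of 6.32, lay at -0.37 and -0.33. The other probe sets of JADE1 lay at -1.37, -1.58 and -0.44 at 4 h and at 0.05, -0.01 and 0.02 at 24 h. By name, 25 of the member probe sets end in _s_at and 3 in _x_at, classes that can read several transcripts or related genes, and signals of LOC646214, SMG1P5 and SNORA21 may come from related or overlapping genes.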

How the data were processed

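RNA of TK6 cells was measured on 120 Affymetrix HG-U133 Plus 2 arrays of 54675 probe sets. The deposited values are log2 signals made by the authors with RMA, per the submitters' processing notes (version not given in the sources used here). RMA brings arrays to nearly the same distribution of signals, so a change of total RNA cannot be seen. Those sources also do not say whether all 120 arrays were normalized together. Of the probe sets 41091 name 1 gene in the platform annotation, 1801 name several and 11721 none, and 62 controls were left out. The brightest probe set stood for each gene, and 14023 genes at or above the median brightness (6.18) in at least 3 arrays were tested.

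Each chemical's 24 arrays were fitted with limma 3.58.1 (R 4.3.3) as 8 group means, and pairs of chemicals (48 arrays), classes (96) and the untreated arrays of the 4 other chemicals (24) likewise. Adjusted p is Benjamini-Hochberg over all 14023 genes, and called means an adjusted p under 0.05. Other values were computed with pandas 2.3.3, and the fits were tested on simulated data. No 2 arrays were identical.

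The members, roles and gene lists were chosen with earlier results of these data known. Genes were named as the 15 deepest at 4 h and 10 deepest at 24 h of 200 µM formaldehyde, the 5 largest falls and rises at 24 h of each other chemical, up to 4 members of each list, the neighbours of the limits, and ACTB, GAPDH and CDKN1A; others were singled out after their values were seen. Of the gene lists, 2 are not reported here. The labels number experiments 1 to 3. Deviations from group means of same-numbered treated and untreated arrays had a median correlation of 0.29 (-0.13 to 0.51, above 0 in 29 of 30 comparisons), against -0.14 for other numbers. Deviations within a group of 3 add up to 0, which ties the second value to the first, so it is not a separate comparison. The block by experiment is given where it moved a count. Alternatives were that block, repeated quantile normalization, the mean of a gene's probe sets, no filter on dim genes, all arrays in 1 fit, and leaving out each experiment or, of the untreated formaldehyde arrays at 4 h, that of experiment 3. The number of arrays limits the precision.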

Additional observations from a re-analysis of the deposited data

Results flagged for a closer look

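The changes of the 132 genes differed between conditions by tests of the difference itself, limma contrasts adjusted over all genes tested. Clastogens minus aneugens at 24 h was lower in 79 genes and higher in 18 (24.7% and 29.9% of all genes). MMS minus EMS at 24 h was lower in 42 and higher in 12 (11.8% and 15.1%). Colcemid minus vincristine at 24 h was lower in 2 and higher in 6 (0.506% and 1.51%). The change with 320 µM MMS at 24 h minus that at 4 h was lower in 59 and higher in 18 (19.7% and 25.6%). With 4 mM EMS the same difference was lower in 78 and higher in 3 (16.9% and 21.4%). For 100 minus 50 µM formaldehyde, the difference at 24 h minus that at 4 h was lower in 0 and higher in 81 (6.35% and 11.9%).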

How the results depend on the processing

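The counts of genes called lower at 24 h with 160 or 320 µM MMS, 2 or 4 mM EMS, the lowest and highest dose of colcemid and every dose of vincristine, and with 100 against 50 µM formaldehyde at 4 h, stayed within 1.5 times their value under every alternative run. In all, 479 count values stayed within that limit and 123 did not, and of the single-gene values 3111 kept direction and call, 66 gained a call, 138 lost it and 3 reversed. The cause of these shifts was not tested. With the mean of probe sets 63 genes met the rule, in place of 132, and only 54 of the 63 were among the 132. In the fit with replicate block, the genes lower with formaldehyde were 6 at 50 µM and 4 h and 6 at 100 µM and 24 h, those lower with 80 µM MMS at 4 h 22, those lower with 1 and 2 mM EMS at 4 h 4 and 9, those lower and higher with the highest dose of colcemid at 4 h 5 and 8, those higher with its middle dose at 24 h 4, those higher with vincristine at 4 h 2, and those lower for 100 minus 50 µM at 24 h minus 4 h 1. The block moved no other count by over 1.5 times.

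Repeated quantile normalization gave 4 genes lower at 50 µM formaldehyde and 4 h, 1 higher at 100 µM and 4 h, 4 lower at 100 µM and 24 h, 63 lower at 80 µM MMS and 24 h, 3 and 9 lower at 1 and 2 mM EMS and 4 h, 8 higher at 4 mM EMS and 4 h, 4 lower with the highest dose of colcemid at 4 h, 4 and 5 higher with its lowest and middle dose at 24 h, 1 lower with the middle dose of vincristine at 4 h, 1 higher for 100 minus 50 µM at 4 h and 4 lower for colcemid minus vincristine. The mean of probe sets gave 0 lower at 50 µM formaldehyde and 4 h, 7 lower at 80 µM MMS and 4 h, 3 higher at 160 µM MMS and 24 h, 2 lower at 2 mM EMS and 4 h, 2 higher at 4 mM EMS at 4 h and 2 at 24 h, 0 lower and 1 higher with the highest dose of colcemid at 4 h, 4 higher with its lowest dose and 57 lower and 6 higher with its middle dose at 24 h, 0 lower and 0 higher with vincristine at 4 h, 1 lower for 100 minus 50 µM at 24 h, and 1 lower and 3 higher for colcemid minus vincristine. It reversed ARID2 with colcemid (0.16), ARHGAP5 with MMS (-0.12) and KLHL5 with colcemid (0.024), none called. With no filter on dim genes 1 was lower at 50 µM formaldehyde and 4 h, 1 higher with the lowest and 1 with the middle dose of colcemid at 24 h, 1 lower for 100 minus 50 µM at 24 h and 1 lower for colcemid minus vincristine. With all arrays in 1 fit 12 were lower at 50 µM and 4 h, 9 lower at 100 µM and 24 h, 0 lower at 1 mM EMS and 4 h, and 1 higher with the lowest and 1 with the middle dose of colcemid at 24 h. Without the 4 h untreated array of experiment 3 of formaldehyde, 1 was lower at 50 µM and 1 higher at 100 µM at 4 h.

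Leaving out 1 experiment at a time gave 0 to 1 lower at 50 µM formaldehyde and 4 h, 0 to 1 higher at 100 µM and 4 h, and 0 to 1 lower and 0 higher at 100 µM and 24 h. For MMS it gave 2 to 4 lower at 80 µM and 4 h, 25 to 41 lower and 1 to 3 higher at 160 µM and 4 h, 4 to 7 higher at 320 µM and 4 h, 20 to 35 lower and 6 to 9 higher at 80 µM and 24 h, and 3 to 5 higher at 160 µM and 24 h. For EMS it gave 0 lower at 1 mM and 4 h, 1 to 2 lower at 2 mM and 4 h, 11 to 24 lower and 2 to 6 higher at 4 mM and 4 h, 24 to 30 lower at 1 mM and 24 h, 4 to 5 higher at 2 mM and 2 to 4 higher at 4 mM. For colcemid it gave 0 to 1 lower and 0 to 1 higher at 4 h, 1 higher at the lowest dose, 1 to 2 at the middle and 5 to 8 at the highest at 24 h, and for vincristine 0 lower and 0 higher at 4 h and 0 to 5 higher at the lowest and 3 to 6 at the middle dose at 24 h. For 100 minus 50 µM formaldehyde it gave 0 lower at 24 h and 45 to 72 higher for 24 h minus 4 h. It gave 8 to 16 higher for MMS at 24 h minus 4 h, 3 to 14 higher for MMS minus EMS, 0 to 1 lower and 1 to 2 higher for colcemid minus vincristine, and 16 to 31 lower in untreated cells at 24 h.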
